A study of Arabidopsis thaliana with 24 samples.

Results

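The genes described here are the nuclear genes of Arabidopsis thaliana whose deposited description names a 30S or a 50S ribosomal protein, the small and the large subunit of the bacterial type of ribosome found in chloroplasts and mitochondria. The rule took 44 of the 33044 genes in the table, from the chromosomes 1 to 5, by the words of the description alone and without regard to expression. Of these, 12 were 30S and 32 were 50S proteins. The descriptions placed 29 in the chloroplast or plastid, 4 in mitochondria and 1, RPS16-2, in both, and named no compartment for the other 10. Those 10 are thus not known to lie outside the plastid. For the 29 chloroplast genes, 8 were 30S and 21 were 50S proteins. Organellar ribosomal proteins whose description lacks these words were not taken by the rule.

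Gene expression was measured by RNA-seq in 24 libraries of 8 groups with 3 replicates each. The wild-type Col-0 (w) was compared with dpe2/phs1 (d), a double mutant made by crossing that lacks the cytosolic transglucosidase DPE2 and the plastidial alpha-glucan phosphorylase PHS1, both enzymes of starch and maltodextrin metabolism. Whole shoots were taken at 3 weeks after germination (P, the Prior Period of the labels) and at 7 weeks (R, the Recovery Period), while young leaves (Y) and mature leaves (M) with petioles were taken at 5 weeks, in what the labels call the Retard Period and the study names for a reduced number of starch granules. The groups are therefore wP, wY, wM, wR, dP, dY, dM and dR. By the labels, both genotypes were sampled alike, so the mutant was always set against Col-0 of the same labelled age and tissue. P or R against Y or M differ in age and tissue together and were not tested. The study reports fewer leaves and later flowering in the mutant. Whether the tissues matched in stage and cell make-up was not tested, and marker genes that differed between the genotypes are given below. All plants grew under 12 h light and 12 h dark and were harvested after 9 h of illumination. The study calls its replicates biological, while the sources used here do not say whether they were separate plants or pools, and p-values measure the spread between these libraries. Ages and tissues are given as in the labels, whereas the study's text speaks of leaves for RNA-seq and places the recovery period earlier.

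Plastid and mitochondrial ribosomes descend from those of bacteria. The plastid ribosome translates the plastid genome, which encodes core subunits of the photosystems, the cytochrome complex, ATP synthase and Rubisco, and it is built from ribosomal RNAs and some proteins made in the plastid together with a larger set of nuclear-encoded proteins that are imported. Some proteins of the plastid ribosome carry the name plastid-specific ribosomal protein (PSRP). Young, expanding leaves need many plastid ribosomes to build the photosynthetic apparatus, and the content of plastid ribosomes falls as leaves mature and senesce.

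Library depth ranged from 17504383 to 27859805 reads, recovered from the steps between low values. DPE2 was measured at 70.4 to 112 FPKM (fragments per kilobase of gene length, scaled to the library's reads) over the wP, wY and wM libraries and at 19.1 to 46.0 over the mutant libraries, and PHS1 at 109 to 180.4 against 9.70 to 28.6. The libraries labelled wR did not separate from dR in either gene, with DPE2 at 19.1 to 39.1 FPKM against 34.6 to 38.3 in dR and PHS1 at 15.2 to 36.2 against 20.3 to 24.6. The same wR libraries also had the strongest trend with gene length: relative to the mean over libraries, their longest 10% of genes minus their shortest 10% came to -1.81 to -0.77 on the log2 scale, while the other libraries ranged from -0.68 to 0.90. The median listed length was 1050.5 bases for the 44 genes and 1734 for all genes tested, so the genes described here are short. The summed FPKM of 8 leaf mesophyll genes was 20775 or more in every library outside dM and 13992 to 14701 in dM, and none of 7 flower genes reached a mean of 1 FPKM in any group.

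The upstream sequences were examined because most chloroplast members moved together in the leaf comparisons described below. In the 250 bases before the annotated gene start, searched on both strands, the site II element TGGGCC or TGGGCT, known from promoters of ribosomal protein and cell cycle genes, was found in 20 of the 44 genes (45.5%), at 44.8% of the chloroplast members and 46.7% of the others. It was found in 19.2% of 27420 protein-coding nuclear genes and in 66.5% of 206 genes for cytosolic ribosomal proteins. Among the 18532 protein-coding genes with a mean of at least 1 FPKM in at least 1 group, the share was 22.8%. In these expressed genes the telo-box was found in 3.65%, the G-box in 7.55% and CCAATC in 10.7%, for the elements described next. The telo-box AAACCCTA was found in 4 members (9.09%), all of them chloroplast members, against 4.48% of all protein-coding genes and 21.8% of the cytosolic ribosomal protein genes. The G-box CACGTG was found in 9.09% of members against 6.48% of all protein-coding genes, and CCAATC, the CCAAT-box core with 1 more base, in 9.09% against 10.2%. The shares of the G-box and CCAATC were thus near those of all genes, and a match describes letters and not a bound site. Overlapping matches were each counted, as where TGGGCC and its reverse complement share bases. Shown are the 200 bases upstream of the 3 chloroplast members with the largest falls in dM against wM, and of the 2 genes with the largest rises there, that have no other gene in the window. They are given 5′ to 3′ on the strand of the gene, from TAIR10.1 (RefSeq), whose gene starts and ends matched the table for all 44 genes, with matches to these elements in capitals.
AT4G17560, chr4:9780024-9780223, plus strand: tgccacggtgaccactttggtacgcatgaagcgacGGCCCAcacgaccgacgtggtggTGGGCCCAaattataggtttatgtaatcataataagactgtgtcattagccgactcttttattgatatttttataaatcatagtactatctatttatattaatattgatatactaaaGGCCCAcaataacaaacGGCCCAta
RPL11, chr1:11955456-11955655, plus strand: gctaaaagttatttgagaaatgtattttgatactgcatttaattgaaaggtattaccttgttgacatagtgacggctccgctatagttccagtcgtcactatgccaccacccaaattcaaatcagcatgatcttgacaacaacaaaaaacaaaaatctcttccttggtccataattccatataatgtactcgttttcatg
RPL6, chr1:1503854-1504053, minus strand: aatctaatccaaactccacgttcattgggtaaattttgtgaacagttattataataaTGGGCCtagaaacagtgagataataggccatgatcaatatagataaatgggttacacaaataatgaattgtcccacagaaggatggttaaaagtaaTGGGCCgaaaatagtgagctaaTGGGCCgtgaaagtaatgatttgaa
AT5G23535, chr5:7935116-7935315, plus strand: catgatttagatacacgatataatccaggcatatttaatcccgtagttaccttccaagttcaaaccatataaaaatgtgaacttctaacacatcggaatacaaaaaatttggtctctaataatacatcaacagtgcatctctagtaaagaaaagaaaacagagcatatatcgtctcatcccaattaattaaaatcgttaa
AT1G16740, chr1:5727422-5727621, plus strand: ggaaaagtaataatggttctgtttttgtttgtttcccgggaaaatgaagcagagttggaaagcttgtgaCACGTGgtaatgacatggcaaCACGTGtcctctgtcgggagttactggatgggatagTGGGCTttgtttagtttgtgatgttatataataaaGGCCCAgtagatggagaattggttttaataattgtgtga
AT4G17560, for a protein of the L19 family, had 5 site II matches and RPL6 had 3, and RPL11 had none of the 4 elements. Among the genes that rose, AT1G16740 had 4 matches and AT5G23535 had none. Falling and rising genes were thus found both with and without these letters.

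The chloroplast members had higher levels than most of the others. A filter kept genes with a mean of at least 1 FPKM in at least 1 group, which 41 of the 44 genes and 19575 of all genes passed. Over the 24 libraries, the mean level per gene of the 27 chloroplast members that passed ran from 29.8 FPKM for RPL3B to 576 for RPL12C, with a median of 364, beside 9.67 for all genes tested. RPL12C encodes an L12 protein of the stalk that recruits translation factors, RPL15 (474 FPKM) a core protein of the large subunit and RPL17 (465 FPKM) a protein at the exit of the peptide tunnel. The 4 mitochondrial members ran from 5.08 (HLL) to 38.5 FPKM (AT2G21290), and the 9 genes without a named compartment that passed ran from 0.192 (AT2G03130) to 126 FPKM (AT5G24490), with a median of 29.0. The level of AT5G24490 was thus above that of the chloroplast members RPL10 (95.3 FPKM) and RPL3B. For RPL12C, near-identical copies in the genome could share reads, so its level is uncertain. The gene pair RPL3A and RPL3B differed in level, at 407 and 29.8 FPKM, both encoding L3, a protein needed for assembly of the large subunit.

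RPL12B was listed at 0 in all 24 libraries, and AT5G51610, an L11-like gene, reached at most 0.445 FPKM. The gene for the plastid elongation factor EF-Tu was also listed at 0, so these zeros say only how the genes are listed. Of the 44 genes, 14 overlap another annotated gene, 3 of them on the same strand, and the kit does not mark strand. The highest mean level of any overlapping gene was 33.2 FPKM, beside RPL15.

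Across the groups, described with no test, the chloroplast members were highest in wY or the P shoots and lowest in the mature leaves of the mutant. Of the 27, 23 had their lowest group mean in dM, 3 in wM and 1 in wP, while 15 had their highest in wY, 6 in wP, 5 in dP and 1 in dR. The median over these 27 genes was 426 to 444 FPKM in the 3 wY libraries, 259 to 276 in wM, 308 to 330.1 in dY and 202 to 209.6 in dM. The mutant and Col-0 did not overlap in either leaf age, and dY lay between wY and wM. In the shoots, the libraries overlapped: wP had 388, 442 and 488 FPKM and dP 419, 434 and 439, and the libraries labelled wR had 327 to 419 against 332 to 367 in dR. The median of the other 14 members did not follow this order, with 24.4 to 29.9 FPKM in wY, 19.3 to 22.1 in wM, 19.6 to 32.8 in dY and 25.9 to 31.0 in dM. Their median was thus higher in dM than in wM in every library.

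**Figure D1:**
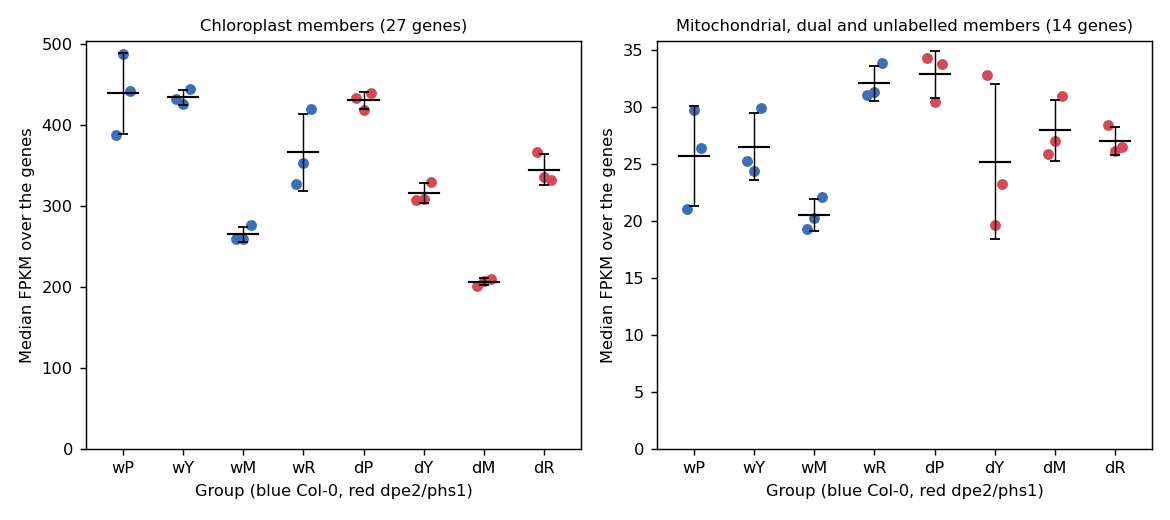
Median FPKM over the 27 chloroplast members (left) and the 14 other members (right) that passed the filter, per library (points) and group (x axis). Bars are the mean of 3 libraries with its SD. The chloroplast median falls from 426 to 444 in wY to 202 to 209.6 in dM.

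Whether leaf age changed the genes was asked within each genotype. In Col-0, 23 of the 27 chloroplast members were lower in mature than in young leaves and none was higher, with a median difference of -0.69 on the log2(FPKM + 1) scale beside -0.07 over all genes. The test was limma on log2(FPKM + 1) with Benjamini-Hochberg adjustment over all 19575 genes, called at an adjusted p under 0.05. It called 25.2% of all genes lower and 18.8% higher in this comparison. RPL13, which stabilises the large subunit in bacteria, fell from 519 to 594 FPKM to 248 to 276 (difference -1.10 ± 0.11, SE, adjusted p = 1.2e-08). No wM library of this gene reached the level of a wY library. Of the 14 other members, 7 were lower and 1 higher.

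In the mutant, 25 of the 27 chloroplast members were lower in dM than in dY and none was higher, with a median of -0.65 beside -0.16 over all genes, where 41.2% of genes were lower and 26.5% higher. The exceptions were RPL17 (-0.25, adjusted p = 0.07) and RPL3B (-0.06, adjusted p = 0.6). In Col-0 and in the mutant, 22 chloroplast members were called lower with leaf age, which is 22 of 23 and 22 of 25. On the log2(FPKM + 1) scale AT4G17560 had the largest fall, from 212, 186 and 189.7 FPKM in dY to 73.2, 73.2 and 68.7 in dM (-1.44 ± 0.08, adjusted p = 8.6e-13). HLL, a mitochondrial L14 protein needed for ovule development, fell from 3.83 to 4.40 FPKM to 0.570 to 1.27 (-1.39 ± 0.13, adjusted p = 3e-09). The added 1 FPKM shrinks differences at such low levels, and as a ratio of FPKM the fall of HLL was larger than that of AT4G17560. AT2G21290, described as a mitochondrial S31 protein, was called higher (0.65 ± 0.26, adjusted p = 0.031), but its libraries overlapped, at 31.9, 12.7 and 15.9 FPKM in dY and 23.4, 23.4 and 48.4 in dM, and without dM replicate 3 the difference was 0.31 (adjusted p = 0.28). With median-of-ratios scaling, which moved the median of all genes to 0.05, 18 of all 41 members were lower and 6 higher, in place of 30 and 2, and 14 of the 27 chloroplast members were lower and none was higher.

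**Figure D2:**
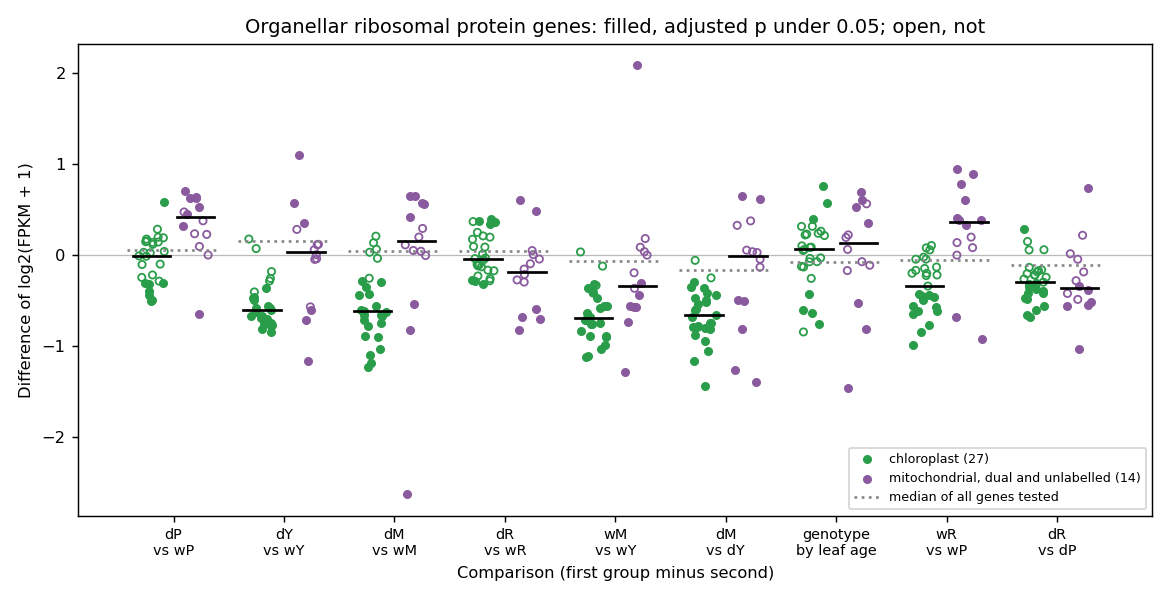
Difference of log2(FPKM + 1) for each member in the 9 comparisons, split into 27 chloroplast and 14 other members, with black lines at each median and dotted lines at the median of all 19575 genes. The chloroplast medians lie near -0.6 to -0.7 in the 4 leaf comparisons and close to 0 in dP against wP and in dR against the libraries labelled wR.

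In young leaves, most chloroplast members were lower in the mutant. Of the 27, 21 were lower in dY than in wY and none was higher, with a median of -0.60 beside 0.15 over all genes, where 19.1% of genes were called lower and 34.6% higher. The median was -0.59 for the 20 large subunit and -0.67 for the 7 small subunit genes, of which 16 and 5 were lower. Median-of-ratios scaling brought the median of all genes to 0.01 and left 24 chloroplast members lower and none higher. RPL3A fell furthest among them, from 592, 620.5 and 590.5 FPKM to 297, 352 and 357 (-0.84 ± 0.09, adjusted p = 6.8e-08). RPS10, a protein of the head of the small subunit, fell from 427, 426 and 356 FPKM to 224, 222 and 237 (-0.82 ± 0.10, adjusted p = 2.5e-07). In both genes every dY library lay below every wY library. The 6 that were not called were RPL17, RPS13, RPS31, PSRP5, PSRP6 and RPL3B. Of these, PSRP5, PSRP6 and RPS31 (PSRP4 in RefSeq) carry the PSRP name. AT1G68590, which RefSeq names as a PSRP3 gene, was lower in dY (-0.78 ± 0.14, adjusted p = 0.00011) and in dM (-0.56 ± 0.14, adjusted p = 0.0016).

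Of the other 14 members, 3 were higher and 3 lower in young leaves, where 34.6% of all genes were higher and 19.1% lower. The mitochondrial genes HLL (-0.71 ± 0.13, adjusted p = 5.6e-05) and RPS9M (-0.60 ± 0.11, adjusted p = 8.3e-05) were lower. AT5G16200, described only as 50S ribosomal protein-like, fell from 3.81, 4.27 and 4.11 FPKM to 1.19, 1.19 and 1.42 (-1.16 ± 0.18, adjusted p = 9.7e-06). AT5G24490, described as a 30S ribosomal protein with no compartment, rose from 155, 149 and 149.8 FPKM to 235, 211 and 232 (0.57 ± 0.15, adjusted p = 0.0026). AT1G16740, described as an L20 protein, was also called higher (0.35 ± 0.13, adjusted p = 0.032), at 31.3, 30.2 and 32.7 FPKM in wY and 53.4, 33.4 and 36.4 in dY. Its dY libraries all lay above wY, but without dY replicate 1 the difference was 0.15 (adjusted p = 0.3), and with median-of-ratios scaling 0.18 (adjusted p = 0.27). AT2G03130, described as an L7/L12 protein, was listed at 0 in all wY libraries and measured at 1.13, 1.55 and 0.835 FPKM in dY, and it passed the filter only through dY. It is counted among the 3 higher. Its difference, called at an adjusted p of 1.4e-06, rests on at most 17 reads in a library and is not a fold change.

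In mature leaves, the same number of chloroplast members, 21 of 27, was lower in the mutant, and none was higher. The median was -0.61 beside 0.05 over all genes, where 32.5% of genes were lower and 36.6% higher. With 1 library left out, 17 to 21 chloroplast members were lower in mature leaves and 20 to 22 in young leaves. Of the genes lower in dY and in dM, 19 were the same, that is 19 of 21 in each. The large subunit genes had a median of -0.66 with 17 of 20 lower, and the small subunit genes -0.28 with 4 of 7 lower. The largest chloroplast falls were all in large subunit genes. AT4G17560 went from 166, 167 and 175 FPKM in wM to 73.2, 73.2 and 68.7 in dM (-1.23 ± 0.08, adjusted p = 4.7e-12), and its bacterial counterpart L19 sits at the interface of the subunits. RPL31, whose bacterial counterpart bridges the subunits, went from 258, 246 and 259 FPKM to 111, 105 and 119 (-1.18 ± 0.11, adjusted p = 2.2e-09). No dM library came near a wM library in either gene, and both are shown by library in the plot of 6 genes.

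RPL34, a small protein of the large subunit, had 319, 339.6 and 358 FPKM in wM and 138, 136 and 210.4 in dM (-1.09 ± 0.18, adjusted p = 1e-05). The stalk proteins L10, L11 and L12 fell together: RPL10 by 1.03 ± 0.11, RPL11 by 0.89 ± 0.09 and RPL12C by 0.89 ± 0.11 on the log2 scale. RPL10 was measured at 94.3, 106 and 103 FPKM in wM and 48.7, 46.9 and 51.3 in dM. RPL11, whose loss lowers plastid translation in Arabidopsis, was measured at 203, 212 and 222 FPKM in wM and 117, 107 and 118 in dM. AT5G47190, the second L19 gene, fell by 0.62 ± 0.10, beside 1.23 ± 0.08 for AT4G17560.

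The 6 chloroplast members not called in mature leaves included RPS13, RPS31, RPL13, RPL17 and RPL3B. RPL17 had 359.6, 362 and 400.5 FPKM in wM and 332, 362 and 404 in dM (-0.03 ± 0.12, adjusted p = 0.81). RPL13 lay above wM in every dM library, at 307, 312 and 293 against 265, 248 and 276 FPKM, but missed the threshold (0.21 ± 0.11, adjusted p = 0.086). In the plastid-specific genes PSRP5 and PSRP6, dM replicate 3 stood above the other dM libraries, at 143 against 79.5 and 93.3 FPKM and at 209.6 against 141 and 136, and dY replicate 1 stood above the other dY libraries, at 251 against 138 and 167 and at 321 against 189 and 228.

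**Figure D3:**
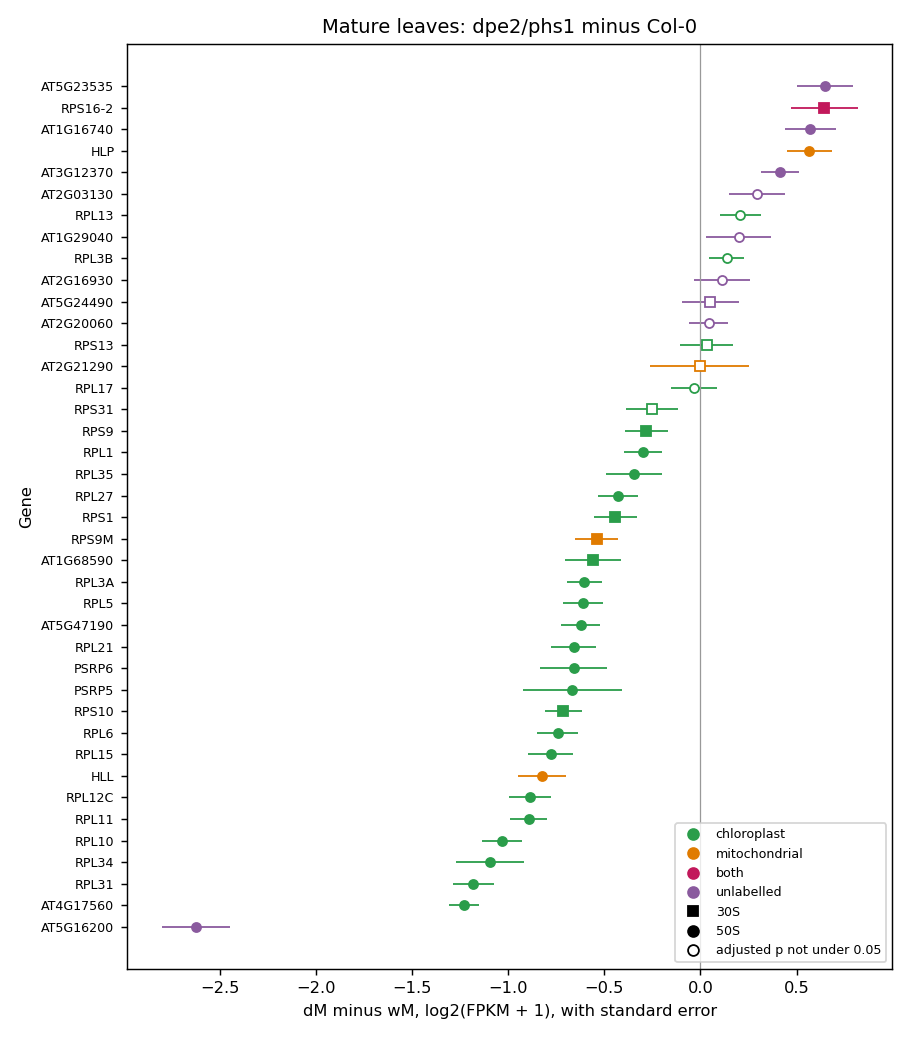
Difference between dM and wM in log2(FPKM + 1) with its standard error for members that passed the filter, ordered by size. Colours give the compartment, squares 30S and circles 50S proteins, and filled symbols an adjusted p under 0.05. The chloroplast genes fill the range from -1.23 to 0.21, and the 5 called rises are in mitochondrial, dual and unlabelled genes.

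Of the other 14 members, 5 were higher and 3 lower in mature leaves, where 36.6% of all genes were higher and 32.5% lower. AT5G23535, described as an L24 protein, rose from 18.7, 18.9 and 21.8 FPKM to 29.4, 35.5 and 29.9 (0.65 ± 0.15, adjusted p = 0.00046). RPS16-2 rose from 20.7, 21.0 and 21.8 FPKM to 28.5, 32.3 and 41.4 (0.64 ± 0.17, adjusted p = 0.0024). AT1G16740 rose from 27.3, 27.8 and 26.8 FPKM to 39.4, 37.2 and 47.1 (0.57 ± 0.13, adjusted p = 0.00069). In each of these genes the dM libraries all lay above the wM libraries. HLP, the paralog of HLL, rose as well (0.57 ± 0.12, adjusted p = 0.0002), as did AT3G12370, described as an L10 protein (0.42 ± 0.10, adjusted p = 0.00081). HLL moved the other way, from 2.02, 2.47 and 2.74 FPKM to 0.570, 1.27 and 0.990 (-0.82 ± 0.13, adjusted p = 5.1e-06), and so did RPS9M (-0.54 ± 0.11, adjusted p = 0.00017).

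AT5G16200 had the largest change of all members. It was measured at 19.6, 19.6 and 22.2 FPKM in wM and at 1.49, 3.12 and 3.10 in dM (-2.62 ± 0.18, adjusted p = 1.5e-11), and at 1.19 to 7.38 FPKM in every library outside wM. In Col-0 it was the only member that rose from young to mature leaves (2.08 ± 0.18, adjusted p = 1.8e-09), and in the mutant it was also higher in mature leaves, but by 0.62 ± 0.18 (adjusted p = 0.004). High levels of this gene were thus seen in the Col-0 mature leaves and in no other group.

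**Figure D4:**
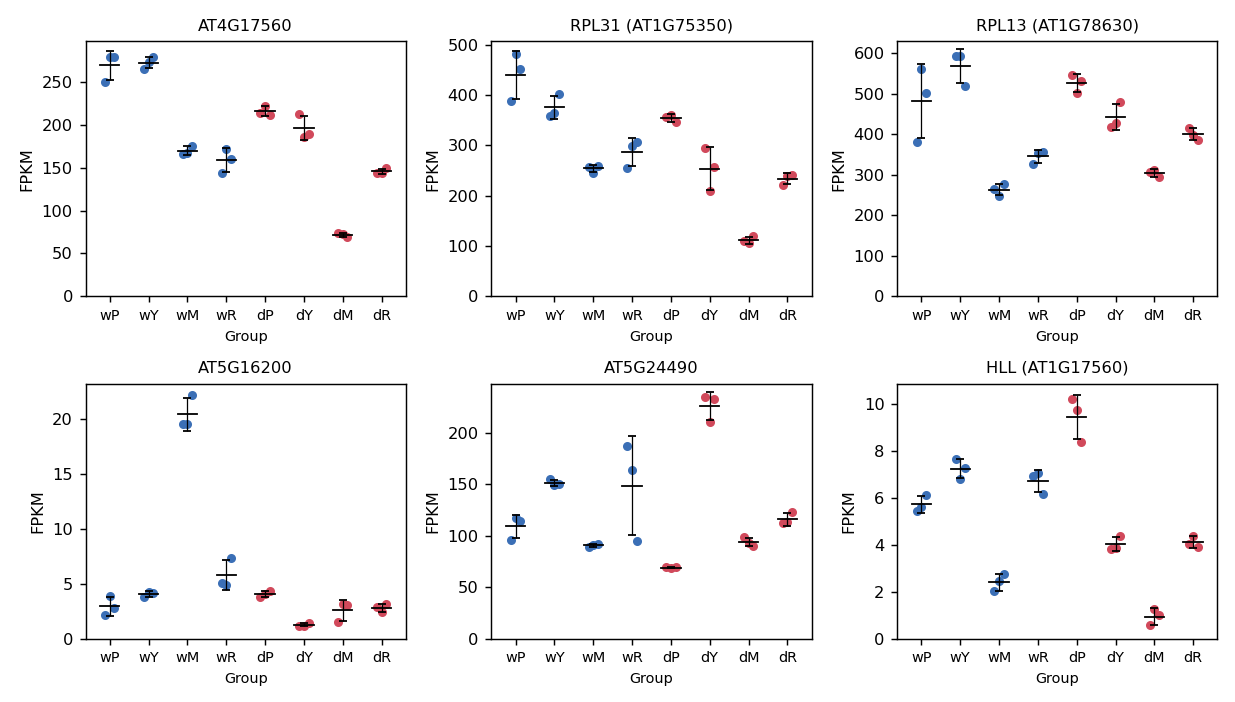
FPKM per library (points; blue Col-0, red dpe2/phs1) with the mean and SD of 3 libraries for 6 members in the 8 groups. AT4G17560 and RPL31 are lowest in dM, RPL13 lies above wM in every dM library but was not called there, AT5G16200 stands high in wM only, AT5G24490 is highest in dY, and HLL is lowest in dM.

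Whether the mutant differed from Col-0 more in mature than in young leaves was tested as (dM-wM)-(dY-wY). For the chloroplast members the median of this term was 0.06 beside -0.07 over all genes, with 3 higher, 4 lower and 20 not called. Without wY replicate 2, wM replicate 2, dY replicate 1 or dM replicate 2, 2 in place of 4 were lower. Of all 41 members, 7 were higher and 7 lower, and of all genes 20.8% and 27.9%. The term was negative in AT4G17560 (-0.76 ± 0.11, adjusted p = 9.3e-06), RPL31, RPL34 and RPL10. The call of RPL34 was lost without wY replicate 1 or 2, wM replicate 2 or 3, dY replicate 1, or dM replicate 1 or 2 (adjusted p = 0.064 to 0.13), and that of RPL10 without wY replicate 2, wM replicate 2, dY replicate 1 or dM replicate 2 (adjusted p = 0.051 to 0.065). The term was positive in RPS9, a call lost without any single library other than wY replicate 3 and wM replicate 3 (adjusted p = 0.051 to 0.11), and in RPL13 (0.57 ± 0.15, adjusted p = 0.0035), which was lower in dY than in wY (-0.36 ± 0.11, adjusted p = 0.0065) and was not called in mature leaves. AT5G16200 had a value of -1.46 ± 0.25 (adjusted p = 6.3e-05). RPS16-2 had 0.69 ± 0.25 (adjusted p = 0.024), but was not called without wY replicate 3 (adjusted p = 0.075), dY replicate 2 (0.084), dY replicate 3 (0.051) or dM replicate 3 (0.08). AT2G03130, counted among the 7 lower, had -0.81 ± 0.21 (adjusted p = 0.0027). It passed the filter only through dY, a group of this term, so this call cannot be read as a result. The gene was not called with quantile normalization (-0.47, adjusted p = 0.076) or with limma-voom on recovered reads (-2.46, adjusted p = 0.082). The counts turned with scaling, to 10 higher and 3 lower with median-of-ratios, to 4 higher and 14 lower with quantile normalization and to 4 higher and 10 lower with the gene length trend removed, and the chloroplast median ranged from -0.31 to 0.20.

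In the 3-week shoots, the called chloroplast members were mostly lower and the called other members mostly higher. Of the 27 chloroplast members, 7 were lower, 1 higher and 19 not called in dP against wP, with a median of -0.01 beside 0.06 over all genes, where 14.9% of genes were lower and 24.3% higher. Of the 14 other members, 7 were higher and 1 lower, with a median of 0.41. RPL1, which forms the mobile stalk of the large subunit, had 524, 541 and 442 FPKM in wP and 353, 354 and 350.1 in dP (-0.51 ± 0.10, adjusted p = 0.00039). RPL10 had 115, 153 and 107 FPKM in wP and 89.4, 85.8 and 88.1 in dP (-0.49 ± 0.11, adjusted p = 0.00093). The chloroplast gene that rose was RPL3B, from 23.1 to 28.3 FPKM to 38.0 to 40.2 (0.58 ± 0.09, adjusted p = 3.9e-05), while 2 were higher without wP replicate 2.

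Among the other members, AT5G24490 fell in the shoots, from 96.3, 117 and 114 FPKM in wP to 69.2, 68.3 and 69.8 in dP (-0.65 ± 0.15, adjusted p = 0.0015), the opposite of its rise in young leaves. HLP rose from 20.4, 28.7 and 27.9 FPKM to 43.9, 39.1 and 43.0 (0.70 ± 0.12, adjusted p = 6.3e-05). HLL rose from 5.43, 5.64 and 6.14 FPKM to 10.2, 9.75 and 8.40 (0.63 ± 0.13, adjusted p = 0.00041), again the opposite of its fall in the leaves. RPS16-2 rose from 21.6, 33.7 and 28.0 FPKM to 43.4, 43.5 and 42.2 (0.64 ± 0.17, adjusted p = 0.0059). The libraries of the groups did not overlap in these 4 genes. Without wP replicate 1, the library with the lowest HLP and RPS16-2 in this group, RPS16-2 was not called (0.47, adjusted p = 0.053) and 5 members in place of 8 were higher. With quantile normalization, 13 of the 41 members were lower and 6 higher, in place of 8 and 8.

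In the 7-week shoots, few chloroplast members were called against the libraries labelled wR: 4 were higher and 3 lower in dR, 20 were not called and the median was -0.04 beside 0.05 over all genes, where 31.6% were higher and 25.2% lower. These counts changed with the libraries and the processing. No (0) chloroplast member was lower without wR replicate 3, 1 without dR replicate 2 and 7 without wR replicate 1. With the gene length trend removed, 12 chloroplast members were higher and none was lower, with a median of 0.26, and of all 41 members 16 were higher and 3 lower in place of 6 and 7. TPM rescaling gave 12 higher and 4 lower, and quantile normalization 11 and 4, of the 41. Without wR replicate 1, 11 of the 41 were lower. RPS1, which binds messenger RNA, rose as deposited from 339, 347 and 279.9 FPKM to 437, 426 and 404 (0.39 ± 0.11, adjusted p = 0.005). RPS9M rose from 13.8, 12.9 and 11.4 FPKM to 19.4, 18.2 and 21.7 (0.60 ± 0.11, adjusted p = 0.0001). AT2G20060, described as an L4 protein, rose from 20.4, 23.7 and 17.4 FPKM to 26.3, 28.8 and 31.6 (0.48 ± 0.10, adjusted p = 0.00037).

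The 3 largest falls against the libraries labelled wR were in genes with no named compartment. AT5G16200 went from 5.07, 4.92 and 7.38 FPKM to 2.85, 2.39 and 3.12 (-0.83 ± 0.18, adjusted p = 0.00049), and so was lower in the mutant in both leaf ages and against the libraries labelled wR. It was not called in P, at 2.16 to 3.90 FPKM in wP and 3.80 to 4.30 in dP (0.38, adjusted p = 0.098). AT1G29040, described as an L34 protein, went from 28.9, 35.3 and 40.6 FPKM to 23.1, 22.0 and 17.9 (-0.70 ± 0.17, adjusted p = 0.0014). AT2G16930, described as an L27 protein, went from 50.5, 54.5 and 69.6 FPKM to 39.0, 36.0 and 32.5 (-0.67 ± 0.15, adjusted p = 0.00057). In all 3 genes no dR library reached a library labelled wR.

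Between the shoot samples labelled as one genotype, chloroplast members were lower at 7 than at 3 weeks where called, with 1 exception. The libraries labelled wR did not separate from dR in DPE2 or PHS1, so wR against wP is a comparison within Col-0 by its labels only. In the libraries labelled wR against wP, 13 of 27 were lower and none higher, with a median of -0.34 beside -0.06 over all genes, where 38.6% of genes were lower and 33.0% higher. The largest fall was in RPL1, to 266, 259 and 233 FPKM from 524, 541 and 442 (-0.99 ± 0.10, adjusted p = 1.5e-08). Of all 41 members, 15 were lower and 8 higher, all 8 outside the chloroplast set, and the split was 27 and 3 with the gene length trend removed and 24 and 4 with TPM rescaling. In dR against dP, 13 of 27 were lower and 1, RPL10, was higher (0.29 ± 0.11, adjusted p = 0.038), a call lost without any one of the dP replicates, dR replicate 1 or dR replicate 2 (adjusted p = 0.069 to 0.12), with a median of -0.30 beside -0.10 over all genes, where 22.1% of genes were lower and 13.5% higher. Of all 41 members 19 were lower and 2 higher, but 9 and 4 with quantile normalization, 9 and 2 with median-of-ratios scaling and 31 and 2 when only dR and dP were fitted. Other lists moved in the same comparisons. In the libraries labelled wR against wP, 6 of 6 senescence genes were higher (summed FPKM up to 16.1 in wP and 154 to 202 in wR), 5 of 5 genes of dividing cells were lower (57.8 to 62.4 and 13.7 to 29.6), and 31 of 40 photosystem and antenna genes were higher and 3 lower (26 and 6 with the gene length trend removed). In dR against dP, 5 of 6 senescence genes were higher (54.1 to 61.9 in dP and 120.3 to 136 in dR), 2 of 5 genes of dividing cells were lower (34.5 to 37.3 and 23.6 to 25.4), and 29 of 40 photosystem and antenna genes were higher and 1 lower. Their part in the result was not tested.

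**Figure D5:**
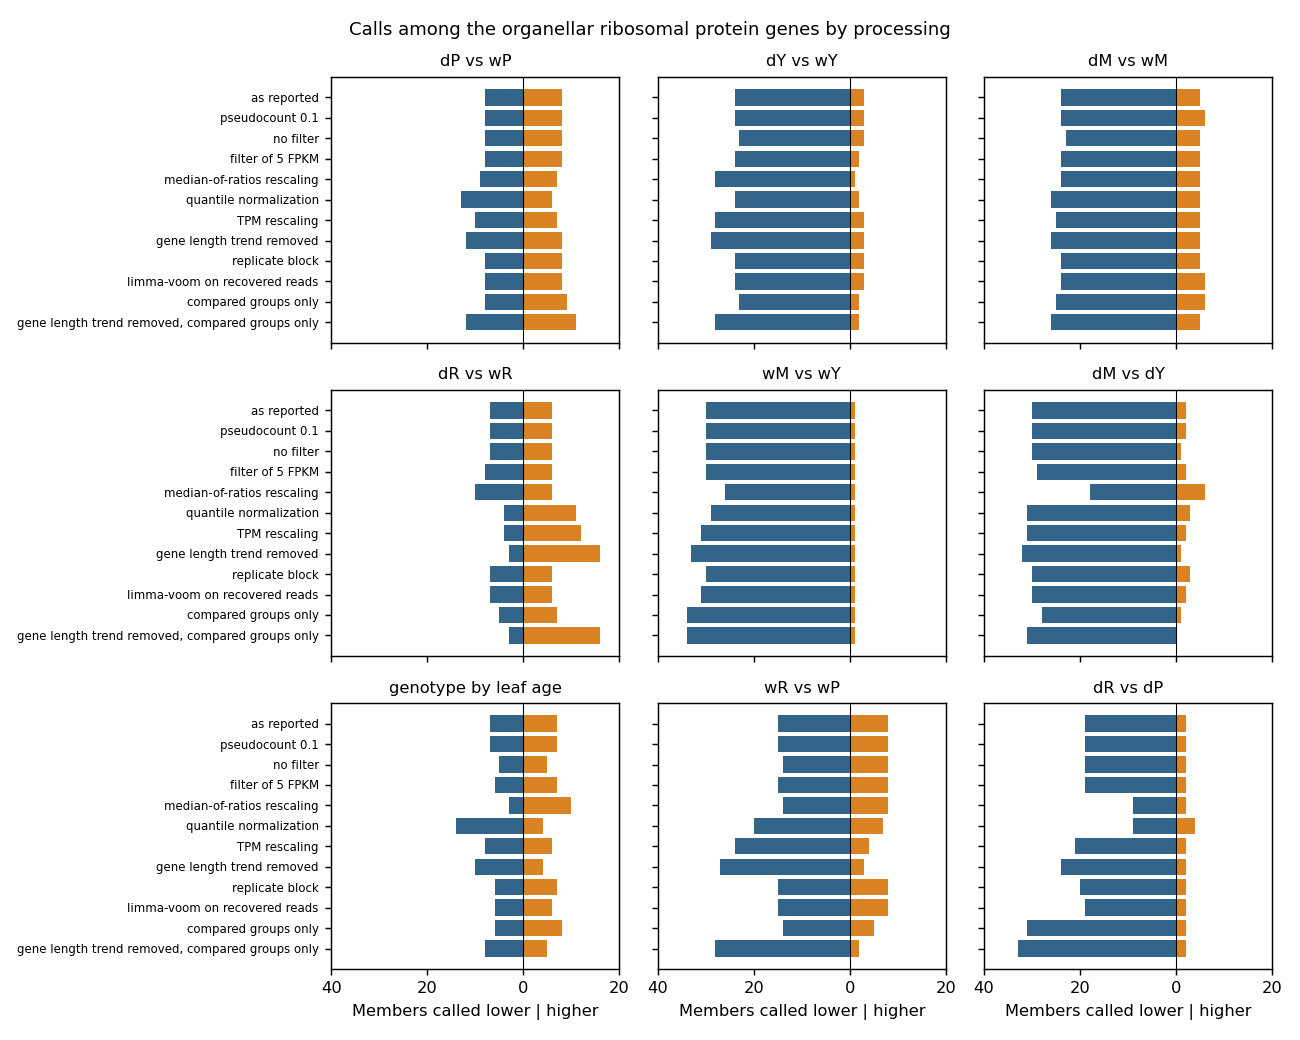
Number of the tested members called lower (blue, to the left) and higher (orange, to the right) in each comparison under each processing, with the values as reported in the top row. The bars of dM against wM stay at 23 to 26 lower and 5 to 6 higher, while those of dR against the libraries labelled wR run from 3 to 10 lower and from 6 to 16 higher.

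Other genes of plastid translation were described from lists of known factors. Of 13 tested translation factors of the plastid, 11 were lower in dM than in wM and none was higher, with a median of -0.83. Over all genes, 32.5% were lower and 36.6% higher in this comparison. The largest were the elongation factor Ts gene emb2726 (-2.76 ± 0.24, adjusted p = 1.4e-09), the elongation factor G gene CPEFG (-2.06 ± 0.23, adjusted p = 5e-08) and the initiation factor 2 gene FUG1 (-1.63 ± 0.23, adjusted p = 1.6e-06). In dY, 5 were lower and 2 higher, where 19.1% of all genes were lower and 34.6% higher. In dP, 7 were lower and none higher, where 14.9% of all genes were lower and 24.3% higher. With 1 library left out, 5 to 6 of these factors were lower in dP and 9 to 10 in dM. As deposited, the median of the translation factors in dM lay below that of the chloroplast ribosomal proteins. The median listed length was 1748 bases for the translation factors and 1009 for the chloroplast members. The longest 10% of genes minus the shortest 10% came to -0.68 to -0.33 in dM and 0.37 to 0.65 in wM. The part of gene length in the order of these medians was not tested. Of 11 factors for the assembly of plastid ribosomes, 4 were lower and 3 higher in dM, with a median of -0.06. These counts were near the shares of all genes, 32.5% lower and 36.6% higher. With the gene length trend removed, 2 were lower and 4 higher. The rises as deposited included RH3, a helicase (0.68 ± 0.15, adjusted p = 0.00036). Against the libraries labelled wR, 8 of the 13 translation factors were higher and 1 lower in dR (6 and 2 with the gene length trend removed). In the same comparison, 10 of the 11 assembly factors were higher and none was lower. Over all genes, 31.6% were higher there and 25.2% lower. The assembly factor genes are long, with a median listed length of 2434 bases, and their median there was 1.26 as deposited and 1.00 with the gene length trend removed.

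Cytosolic ribosomal protein genes moved in the same direction as the chloroplast members in some comparisons and not in others. Of 192 tested, 128 were lower and 2 higher in wM against wY, with a median of -0.52, and 146 were lower and none (0) higher in dR against dP, with a median of -0.56. The shares over all genes were 25.2% lower and 18.8% higher in wM against wY, and 22.1% lower and 13.5% higher in dR against dP. In dY against wY, 53 were lower and 11 higher (102 and 7 with median-of-ratios scaling), but 31 were lower without dY replicate 2, 34 without wY replicate 3 and 89 without dY replicate 1. Over all genes, 19.1% were lower and 34.6% higher in dY. In the mutant against Col-0 at the other stages, 161 were higher and 1 lower in dP, and 69 higher and 18 lower in dM with a median of 0.23. With quantile normalization 49 were higher and 45 lower in dM, and with the gene length trend removed 52 were higher and 41 lower. The shares over all genes were 24.3% higher and 14.9% lower in dP, and 36.6% higher and 32.5% lower in dM. Nuclear photosystem and antenna genes were mostly lower in dM, with 26 of 40 lower, 7 higher and a median of -0.68. Other lists moved with the chloroplast members. Of 6 senescence genes all 6 were higher in dM, of 5 genes of dividing cells 5 were lower in dY and 4 in dM, and of 8 mesophyll genes 5 were lower and 2 higher in dM. The summed FPKM of the senescence genes was 74.1 to 83.9 in wM and 937 to 1149.5 in dM, with SAG12 at 0 in every wM library and at a mean of 43.0 in dM, and 28.4 to 32.7 in wY against 134 to 192 in dY. The summed FPKM of the genes of dividing cells was 68.4 to 70.5 in wY, 26.7 to 31.2 in dY, 6.78 to 8.01 in wM and 3.27 to 4.25 in dM, and that of the 8 mesophyll genes was 30938 to 32944 in wM and 13992 to 14701 in dM. That of 4 shoot meristem genes was 0.347 to 0.549 in wY, 3.09 to 3.48 in dY, 0 in all wM libraries and 3.28 to 3.86 in dM, where STM and KNAT1 had means of 2.01 and 1.45 FPKM. The part of senescing, dividing, mesophyll or meristem cells in the lower chloroplast members was not tested. In bulk tissue, fewer cells of a type and less RNA per cell cannot be told apart.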

How the data were processed

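RNA-seq was analysed in 24 libraries of 8 groups with 3 replicates each. Per the study's methods, TRIzol RNA was sequenced on an Illumina instrument as read pairs and mapped with HISAT2, and the submitters' processing notes also name CASAVA, featureCounts and TAIR10, with versions not given in the sources used here. The deposited values are FPKM per gene. The test the study used needs read counts and was not repeated. Depths of 17504383 to 27859805 reads, with a median of 19438279, were taken from the steps of the FPKM values at the listed gene lengths. With those lengths, 56.7% of nonzero values came within 0.02 of whole reads, and 99.2% once the gene length was fitted. The fitted length was chosen to make the values whole, so the 99.2% is no check of the depths. Recovered reads could sum to more than the depth, as in wP replicate 1 (18389647 against 17803563).

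Here log2(FPKM + 1) was fitted with limma 3.58.1 in R 4.3.3, with 1 mean per group over all 24 libraries, trended empirical Bayes variances and no replicate block, on 19575 genes with a mean of at least 1 FPKM in at least 1 group. Calls were made at a Benjamini-Hochberg adjusted p under 0.05 over these genes, two-sided, in 9 comparisons. The fit was tested on simulated data. Alternatives changed the pseudocount (0.1), the filter (none, or 5 FPKM), the scaling (median-of-ratios, quantile, TPM), the gene length trend (lowess on length, span 0.3), the libraries fitted, the replicate block, and the model (limma-voom on recovered reads).

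Named genes were the 3 largest rises and falls without overlap of libraries in each mutant against Col-0 comparison, the 2 largest and smallest values in dM against dY and in the genotype by leaf age term, the 3 highest and lowest levels, and genes of known role. Others were named after their values were seen. Some members are counted but not reported by name here. The genes, lists and tests were chosen with earlier results of these data known, so p-values are not independent evidence for the choice. Every pair of replicates differed by more than the sampling noise of its reads.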

Additional observations from a re-analysis of the deposited data

Results flagged for a closer look

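The difference between dpe2/phs1 and Col-0 differed between mature and young leaves in the members given here, by the term (dM-wM)-(dY-wY) of the limma fit with its adjusted p. It was negative, that is lower in mature leaves, in AT5G16200 (-1.46, adjusted p = 6.3e-05), AT2G03130 (-0.81, adjusted p = 0.0027), AT4G17560 (-0.76, adjusted p = 9.3e-06), RPL34 (-0.64, adjusted p = 0.039), RPL31 (-0.61, adjusted p = 0.0023), AT5G24490 (-0.52, adjusted p = 0.045) and RPL10 (-0.43, adjusted p = 0.022). It was positive in AT3G12370 (0.36, adjusted p = 0.04), RPS9 (0.39, adjusted p = 0.048), AT5G23535 (0.53, adjusted p = 0.038), RPL13 (0.57, adjusted p = 0.0035), HLP (0.61, adjusted p = 0.0047) and RPS16-2 (0.69, adjusted p = 0.024). Of all genes tested, 27.9% were lower and 20.8% higher for this term. AT2G03130 passed the filter only through dY, a group of this term, and had at most 17 reads in a library. Its value is not a fold change. Its call was lost with quantile normalization (adjusted p = 0.076) and with limma-voom on recovered reads (adjusted p = 0.082). Several of the calls listed were lost when 1 library was left out. Those of RPL34, RPL10, RPS9 and RPS16-2 were lost without the libraries named above for this term. The call of AT5G24490 was lost without any library other than dY replicate 2 (adjusted p = 0.05 to 0.083). That of AT3G12370 was lost without wY replicate 2 or 3, wM replicate 2 or 3, dY replicate 1 or 2, or dM replicate 1 or 3 (0.056 to 0.092). That of AT5G23535 was lost without wY replicate 1, wM replicate 1 or 2, dY replicate 2 or 3, or dM replicate 2 (0.075 to 0.11). Groups held 3 libraries, too few for a test of single outlying libraries.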

How the results depend on the processing

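The counts for dM against wM and wM against wY stayed within 1.5 times of the reported ones under every alternative. Others did not, and the cause was not tested. Quantile normalization gave 13 members lower in dP, 4 lower and 11 higher in dR against the libraries labelled wR, 14 lower and 4 higher for the genotype by leaf age term, and 9 lower and 4 higher in dR against dP. Median-of-ratios scaling moved the median of all genes by -0.15 in dY against wY, 0.21 in dM against dY and 0.12 in the genotype by leaf age term, and gave 1 member higher in dY, 18 lower and 6 higher in dM against dY, 3 lower for that term and 9 lower in dR against dP. Of all genes it called 4935 higher and 5045 lower in dY, in place of 6767 and 3732, and 7065 and 6241 in dM against dY, in place of 5182 and 8074. TPM rescaling moved the median of all genes by 0.11 in dR and -0.19 in wR against wP, and gave 4 lower and 12 higher in dR, and 24 lower and 4 higher in wR against wP. Removing the gene length trend gave 3 lower and 16 higher in dR, 1 higher in dM against dY, 4 higher for the genotype by leaf age term, and 27 lower and 3 higher in wR against wP. Fitting the compared groups alone gave 1 higher in dM against dY, 5 higher in wR against wP and 31 lower in dR against dP. Both together, chosen after seeing the data, gave 3 lower and 16 higher in dR, none (0) higher in dM against dY, 28 lower and 2 higher in wR against wP and 33 lower in dR against dP. No filter gave 1 higher in dM against dY.

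Leaving out each replicate in turn gave 6 to 10 members lower and 5 to 10 higher in dP, 23 to 26 and 2 to 3 in dY, 20 to 24 and 5 to 6 in dM, 5 to 11 and 5 to 6 in dR, 28 to 30 and 1 to 1 in wM against wY, 27 to 30 and 1 to 4 in dM against dY, 4 to 7 and 3 to 8 for the genotype by leaf age term, 14 to 20 and 6 to 8 in wR against wP, and 15 to 18 and 1 to 2 in dR against dP. Single libraries that moved a count by over 1.5 times were wP replicate 1 (5 higher in dP), wR replicate 1 (11 lower in dR), dY replicates 1, 2 and 3 and dM replicates 1 and 3 (4, 1, 1, 4 and 1 higher in dM against dY), wY replicate 2, wM replicate 2, dY replicate 1 and dM replicate 2 (4 lower each for the term), wM replicate 2, dY replicate 2 and dY replicate 3 (4, 3 and 4 higher for it), and every dP replicate and dR replicates 1 and 2 (1 higher in dR against dP). Of 562 alternative values for the named genes in their comparisons, 539 kept direction and side of the threshold, 23 kept direction only, and none (0) reversed. These genes were picked for large called changes in the same data, so the number kept is no independent check.

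The deviations of same-numbered replicates from their group means had correlations of -0.41 to 0.41. Pairs with different numbers were not set beside them, so these values cannot say whether the numbers pair the samples. A replicate block gave 8 lower and 8 higher in dP, 24 and 3 in dY, 24 and 5 in dM, 7 and 6 in dR, 30 and 1 in wM against wY, 30 and 3 in dM against dY, 6 and 7 for the genotype by leaf age term, 15 and 8 in wR against wP and 20 and 2 in dR against dP.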
